A study of Homo sapiens with 12 samples.

Results

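Knockout lines 1 and 2 of an FMR1-knockout series in SH-SY5Y cells were compared with wild type, using the 3 knockout libraries that lay farthest from wild type. SH-SY5Y is an established human neuroblastoma cell line with features of immature sympathetic neurons. The study sequenced poly(A) RNA of wild-type cells and of 3 FMR1-KO lines that, per the labels, were made independently, each grown for 2 weeks in SILAC medium with 10% dialyzed serum. Heavy medium carried lysine and arginine labelled with stable isotopes of carbon and nitrogen, and light medium carried the ordinary amino acids. The compared groups were 3 wild-type libraries in heavy and 3 in light medium against line 1 in light medium, line 2 in heavy medium and line 2 in light medium. These 9 libraries are 9 of the 12 in the series. The others are line 3 in heavy and in light medium, which the comparison did not use, and line 1 in heavy medium, which was left out because it lay midway between line 1 in light medium and wild type. The members of the comparison are the 16347 genes, of 59087 features in the table, that passed a filter on low counts.

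The 3 knockout libraries stand for 2 lines, 1 library of line 1 and 2 of line 2. The labels number the wild-type libraries without saying that they came from separately derived cells, so a p-value measures the spread between these libraries, and that spread may be technical. Making a line and losing FMR1 cannot be told apart. The sources used here give neither the position of the edit nor whether a line is 1 clone.

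The product of FMR1 is FMRP, an RNA-binding protein that associates with ribosomes and regulates the translation of many neuronal mRNAs. Loss of FMRP causes fragile X syndrome. Neuroblastoma cells occupy an adrenergic state, held by transcription factors such as HAND2 and GATA3, or a mesenchymal state with factors such as PRRX1. SH-SY5Y cells are usually placed in the adrenergic state, in which genes of noradrenaline synthesis, secretory granules and axon growth are active.

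Library totals ranged from 25935152 to 40257027 counts, and between 22356 and 23848 features were detected per library. Mitochondrial transcripts took 9.53% to 10.5% of counts in wild type and 11.5% to 12.2% in the 3 diverged libraries. Line 3 heavy and light were at 10.9% and 11.8% and line 1 heavy at 12.1%, so every knockout library was above wild type. The part of this difference in the results was not tested. Among 13632 genes with a mean of at least 1 CPM (counts scaled to a common library total after TMM normalisation), the diverged libraries had 434 to 581 genes at least 2-fold above wild type of the same medium. They had 306 to 332 genes at least 2-fold below it. Each wild-type library had at most 1 such gene in either direction against the mean of its own medium, which includes that library. Line 3 had 70 and 71 genes above and 41 and 54 below. These distances are among the values by which the libraries were chosen.

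The library labelled knockout line 1 in heavy medium was set on a scale on which the wild-type mean is 0% and line 1 in light medium is 100%, computed on CPM. Over the 184 genes at least 2-fold higher in line 1 light and with at least 5 CPM in wild type, its median position was 49.3%, with quartiles of 45.4% and 57.1%. Over the 213 genes at least 2-fold lower, the median was 53.9%, with quartiles of 49.5% and 58.1%. A further set was taken from genes in which line 1 light differed from line 2: the 35 that were at least 2-fold from line 2 and at least 2-fold from wild type had a median of 51.8%. The library thus stood near the middle also for genes that set line 1 apart from line 2. Its midway position was the reason it was left out, so these values describe that choice. The gene sets were picked by their change in line 1 light, the library that sets the 100% point. The cause was not tested.

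**Figure D1:**
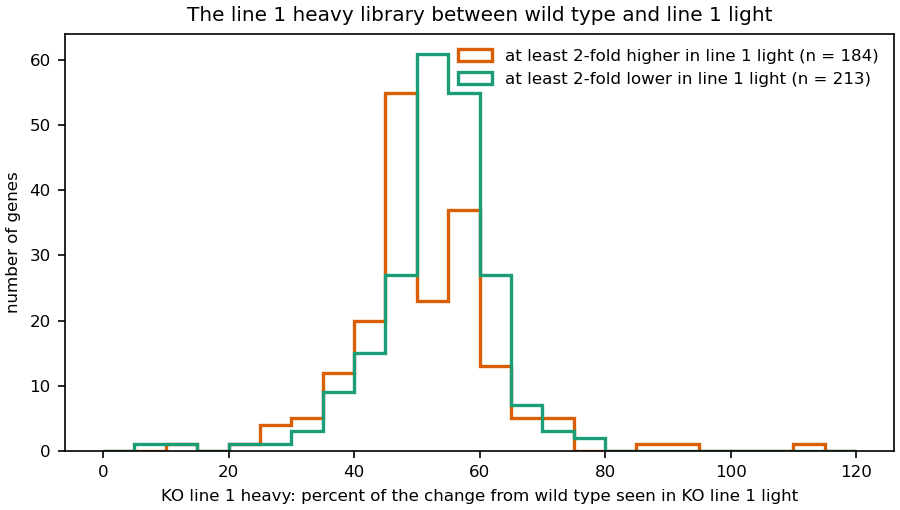
Position of the knockout line 1 heavy library for genes at least 2-fold higher (orange, 184 genes) or lower (green, 213 genes) in line 1 light than in wild type; the x axis is the percent of the change from the wild-type mean to line 1 light, on CPM, and the y axis counts genes in steps of 5 percentage points. Both sets are centred near the middle of the scale, with medians of 49.3% and 53.9%.

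The targeted transcript was checked first. FMR1 lies on the plus strand of chromosome X (GRCh38, 147911951 to 147951125; ENSG00000102081.14). It was at 42.0, 37.3 and 35.9 CPM in wild type in heavy medium and 37.5, 36.4 and 37.3 CPM in light medium. It was at 11.4 CPM in line 1 light, 12.8 CPM in line 2 heavy and 11.5 CPM in line 2 light, below every wild-type library (log2 fold change -1.66, SE 0.07). Line 1 heavy had 22.4 CPM, and the heavy and light libraries of line 3 had 7.19 and 9.05 CPM. The transcript was therefore lower in line 3 than in the diverged libraries, with a log2 difference of 0.55 between them (SE 0.108, edgeR adjusted p = 0.000668). Of the paralogs, FXR1 did not pass (log2 fold change -0.10, SE 0.046), and FXR2 fell by 0.14 (SE 0.045). In a list of 21 FMRP relatives and partners, 13 fell, FMR1 among them, and 1, the RNA helicase MOV10, rose, with a list median of -0.17. Over all genes tested, 23.5% fell and 24.7% rose. In line 3, where FMR1 was lowest, 1 of the 21, FMR1 itself, passed lower and 0 higher, with a list median of -0.036. Among its members CYFIP1, which links FMRP to actin regulation, fell by 0.31, and YBX1, a partner in messenger ribonucleoprotein particles, fell by 0.26.

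Of the 16347 genes, 7869 (48.1%) passed an adjusted p of 0.05 in edgeR's quasi-likelihood test, 4032 (24.7%) higher and 3837 (23.5%) lower in the diverged libraries. Since the libraries were chosen for their distance from wild type, these counts describe the contrast, and "rose" and "fell" below mean a call in this fit and no more. At least 2-fold changes were found for 910 genes upward and 628 downward, and the median log2 fold change over all genes was -0.004. In bulk RNA, fewer cells of a type and less RNA per cell cannot be told apart.

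A group of genes went from near absence to clear expression or the reverse. With limits chosen after the values were seen, 27 genes had at least 3 CPM in wild type and at most 5% of that in each diverged library, and 12 genes had at most 0.5 CPM in wild type and at least 3 CPM in each diverged library. Just outside the first limit was the ligand BMP7, at 5.01% of its wild-type mean in its highest diverged library, and just outside the second was the GABA receptor subunit GABRQ, at 2.93 CPM in its lowest. Of these 39 genes, 4 promoters are printed because they stand for the most abundant switched-off genes, PRICKLE1 and TEAD2, and for abundant switched-on genes, TNFRSF1A and PRPH. They were the highest in each set for which the RefSeq table holds an entry whose bases just after the start are found in a GENCODE transcript of the gene. Each is the 250 bases before the RefSeq start on GRCh38.p14, written 5′ to 3′ on the gene's strand, with the CpG dinucleotides in capitals. The windows of PRICKLE1 and PRPH lie inside the genes as GENCODE places them (42456757 to 42590355 and 49293252 to 49298686), so they precede internal starts. Which start these cells use was not tested.
PRICKLE1 (chr12:42483616-42483865, minus strand): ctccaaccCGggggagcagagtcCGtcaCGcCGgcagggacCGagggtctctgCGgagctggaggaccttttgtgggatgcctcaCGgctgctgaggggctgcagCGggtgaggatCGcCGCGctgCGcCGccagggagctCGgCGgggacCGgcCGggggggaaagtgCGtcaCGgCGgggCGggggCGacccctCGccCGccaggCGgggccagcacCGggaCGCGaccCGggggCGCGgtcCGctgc
TEAD2 (chr19:49362417-49362666, minus strand): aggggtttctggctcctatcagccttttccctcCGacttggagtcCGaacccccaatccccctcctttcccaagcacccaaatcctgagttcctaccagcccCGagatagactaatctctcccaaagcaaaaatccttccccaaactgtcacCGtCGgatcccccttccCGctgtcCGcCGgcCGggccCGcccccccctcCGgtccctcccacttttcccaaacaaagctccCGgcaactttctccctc
TNFRSF1A (chr12:6342077-6342326, minus strand): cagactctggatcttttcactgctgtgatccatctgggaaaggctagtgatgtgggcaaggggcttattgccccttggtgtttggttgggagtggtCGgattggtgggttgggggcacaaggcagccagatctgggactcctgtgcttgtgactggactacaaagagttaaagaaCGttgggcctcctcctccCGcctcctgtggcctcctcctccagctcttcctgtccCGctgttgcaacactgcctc
PRPH (chr12:49294897-49295146, plus strand): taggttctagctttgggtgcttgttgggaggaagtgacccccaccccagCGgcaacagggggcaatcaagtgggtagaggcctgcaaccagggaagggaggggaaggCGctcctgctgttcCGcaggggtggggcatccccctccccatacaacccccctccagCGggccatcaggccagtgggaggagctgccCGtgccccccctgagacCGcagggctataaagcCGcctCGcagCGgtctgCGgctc

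The motif searched was CG, which reads the same on both strands. PRICKLE1 holds 32 CpGs, and 16.1% of the RefSeq promoters of tested coding genes hold at least as many. TEAD2 holds 12 (82.1% hold at least as many), PRPH 10 (85.9%) and TNFRSF1A 4 (94.9%). FAM20C, a switched-on gene passed over because the bases after its RefSeq start were not found in a GENCODE transcript, holds 38 CpGs in its window, and MET holds 24. DNA methylation was not measured, and a comparison of CpG counts over gene sets is void here because fewer than 80% of the tested coding genes have an entry.

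Among the genes that came on, the most abundant were MAGEA10, a cancer-testis antigen of the X chromosome, and FAM20C, a kinase that phosphorylates secreted proteins. MAGEA10 was at 0.0657 to 0.198 CPM in the 6 wild-type libraries and at 57.8 CPM in line 1 light, 34.2 CPM in line 2 heavy and 37.7 CPM in line 2 light. Reads of MAGEA10 could be shared with other MAGE genes. FAM20C (chromosome 7, 192969 to 260745) was at 0.0338 to 0.197 CPM in wild type and at 39.9, 38.2 and 37.4 CPM in line 1 light, line 2 heavy and line 2 light. TNFRSF1A (chromosome 12, 6328757 to 6342114), the main receptor of tumour necrosis factor, had 4 counts in all 6 wild-type libraries together, and 18.9, 13.5 and 14.5 CPM in the same 3 diverged libraries. The limits that picked these genes left no room for overlap between the diverged libraries and wild type.

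The other switched-on genes encode an intermediate filament of peripheral neurons, a growth factor receptor and proteins of vesicles and the cell surface. PRPH, peripherin, the neuronal intermediate filament, went from 0.206 ± 0.0547 CPM (SD, n = 6) in wild type to 8.03 CPM in line 1 light, 17.2 CPM in line 2 heavy and 15.9 CPM in line 2 light. MET, the receptor of hepatocyte growth factor, went from 0.391 ± 0.132 CPM (SD, n = 6) to 6.93, 16.8 and 17.1 CPM. Its ligand HGF went the other way, from 24.4 ± 3.11 CPM (SD, n = 6) to 0.311, 0.451 and 0.617 CPM. EGFLAM, a matrix protein, RAB37, a small GTPase of secretory vesicles, GALNT6, which starts O-linked glycosylation, ENPEP, a surface aminopeptidase, RAMP3, a partner of calcitonin-family receptors, SMIM10 and the microRNA host gene MIR100HG completed the set, with means of 4.77 to 9.51 CPM in the diverged libraries.

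Other large rises were found for genes with weak expression in wild type. NPY, the neuropeptide co-released with noradrenaline, was at 2.80 to 4.12 CPM in wild type and at 128 CPM in line 1 light, 148 CPM in line 2 heavy and 152 CPM in line 2 light (log2 fold change 5.47, SE 0.079). SHISA5, a membrane protein of the endoplasmic reticulum, was at 2.67 to 3.26 CPM and at 94.2, 102 and 109 CPM (log2 5.12, SE 0.071). Both genes were picked as large rises with the diverged libraries outside the wild-type range, so the gap was part of the choice. SCG5, a chaperone of prohormone convertase, went from 1.48 to 42.0 CPM on average, with line 1 light at 59.9 CPM above line 2 at 31.8 and 34.4 CPM. GLT1D1 went from 0.611 to 23.9 CPM and HS6ST3, a heparan sulfate sulfotransferase, from 0.521 to 14.5 CPM.

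**Figure D2:**
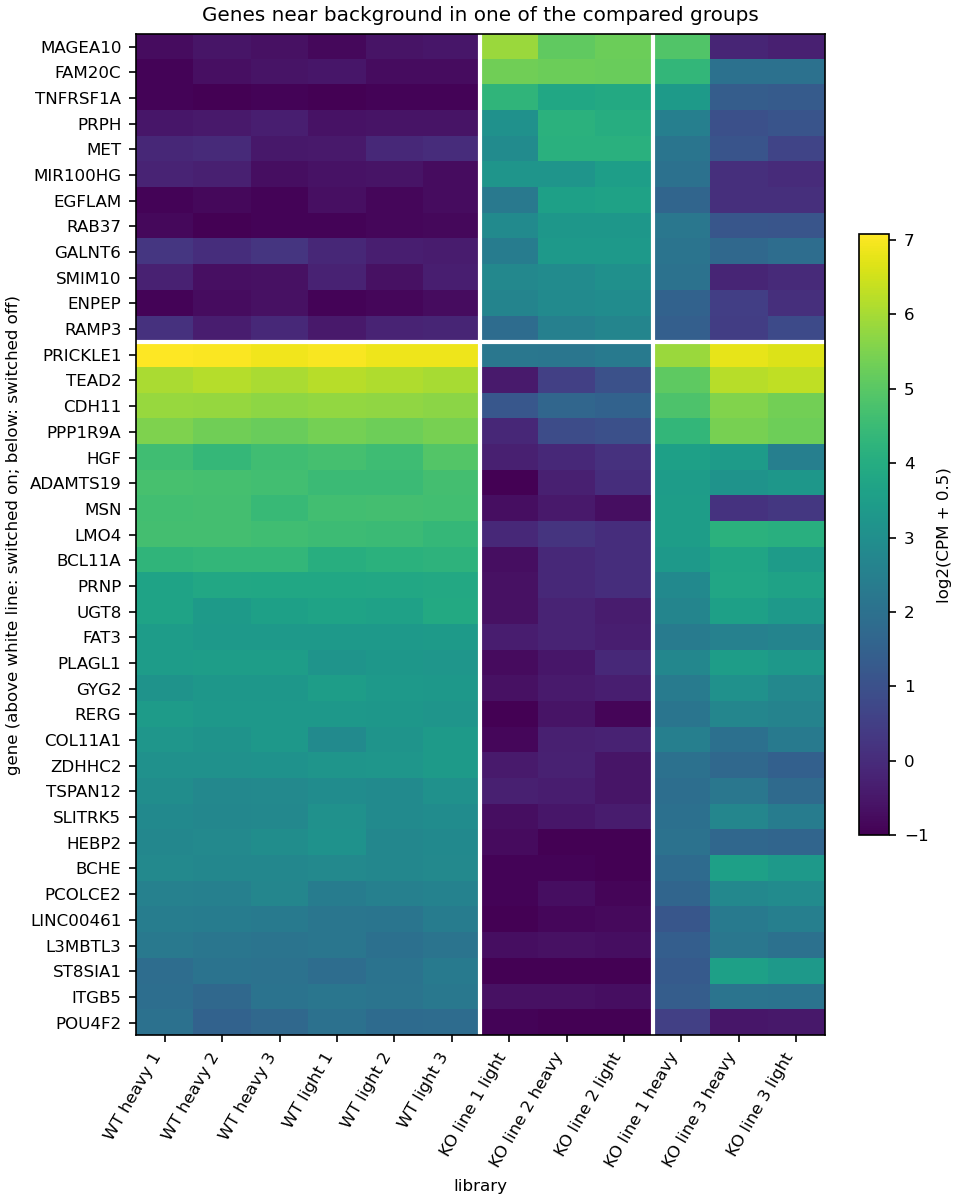
Level of the 12 genes switched on (upper block) and the 27 switched off (lower block) in all 12 libraries, as log2(CPM + 0.5), with 1 row per gene and 1 column per library; white lines part the genes and separate wild type, the 3 diverged libraries and the 3 other knockout libraries. The line 1 heavy column is intermediate throughout, and line 3 keeps many of the switched-off genes.

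The most abundant genes that went off act in cell polarity and in transcription. PRICKLE1, a planar cell polarity protein, was at 118 to 135 CPM in wild type and at 4.10, 4.03 and 4.44 CPM in line 1 light, line 2 heavy and line 2 light (log2 fold change -4.90, SE 0.077). TEAD2 (chromosome 19, 49340595 to 49362457), a DNA-binding factor through which the Hippo pathway acts, was at 64.2 to 74.1 CPM and at 0.255, 0.93 and 1.5 CPM (log2 -6.34, SE 0.245). The adhesion molecule CDH11 went from 53.3 to 2.27 CPM on average, and PPP1R9A, neurabin, which anchors phosphatase to actin, from 40.8 to 1.07 CPM. That the highest diverged library of each gene was below 5% of the wild-type mean follows from the limits that picked them.

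Several other switched-off genes encode nuclear factors or proteins of the cell surface and cortex. BCL11A, a zinc finger repressor, fell from 18.4 to 0.368 CPM on average, the LIM cofactor LMO4 from 23.1 to 0.547 CPM, and PLAGL1, an imprinted zinc finger factor, from 9.81 to 0.248 CPM. MSN, moesin, which ties actin to the membrane, was at 21.2 to 24.8 CPM in wild type and at 0.113, 0.226 and 0.116 CPM in the diverged libraries. PRNP, the prion protein gene, fell from 13.6 to 0.378 CPM, the metalloprotease ADAMTS19 from 24.2 to 0.283 CPM, and UGT8, which makes galactosylceramide, from 12.2 to 0.259 CPM. BCHE, butyrylcholinesterase, had 190 to 248 counts per wild-type library and 0 or 1 count in each diverged library. POU4F2, a POU-domain factor of sensory neurons, had at least 75 and 0 or 1.

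ST8SIA1, the sialyltransferase that makes ganglioside GD3, had 95 to 151 counts in each wild-type library and no count in any of the 3 diverged libraries. With 3 counts per library taken as the limit that a count of 0 allows, which is at most 0.116 CPM, it was at least 31.8-fold lower than the wild-type mean of 3.68 CPM. This limit covers counting error only. Line 1 heavy had 67 counts, and line 3 had 344 and 358, more than any wild-type library.

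Line 3 was left out of the diverged group because it lay nearer to wild type, so its distance was part of the choice, and its smaller counts describe that choice. In line 3 against the same wild-type libraries, 1238 of 16459 genes (7.52%) passed, 656 higher and 582 lower, with 161 and 99 changed at least 2-fold. The count was 538 without line 3 heavy and 603 without line 3 light. In a fit on 11 libraries, 4970 of 16874 genes (29.5%) differed between the diverged libraries and line 3, 2612 higher and 2358 lower in the former. The choice of the diverged libraries favours such differences.

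The switched-on genes were detected in line 3 at a small share of the level in lines 1 and 2. On a scale from the wild-type mean (0%) to the mean of the diverged libraries (100%), their median position was 9.4% in line 3 heavy and 8.23% in line 3 light, and all 12 were above the highest wild-type library in both. The 12 were chosen for low values in these same wild-type libraries, which favours line 3 lying above them. The tests of line 3 against wild type below use the same values. FAM20C was at 3.51 and 3.57 CPM in line 3 (log2 4.82 against wild type, edgeR adjusted p = 2.05e-09), and the diverged libraries were higher still (log2 difference 3.44, SE 0.129). TNFRSF1A was at 2.11 and 2.02 CPM (adjusted p = 8.78e-09 against wild type), and RAB37 at 1.74 and 1.68 CPM (adjusted p = 5.84e-08). MAGEA10 was at 0.401 and 0.32 CPM in line 3, against at most 0.198 CPM in wild type. NPY was at 24.7 and 20.3 CPM in line 3, above wild type (adjusted p = 3.39e-12) and below the diverged libraries (log2 difference 2.71, SE 0.098). FAM20C and NPY were picked as large rises in the diverged libraries, so no test of their difference from line 3 is given.

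The switched-off genes, for which the wild-type values were likewise part of the choice, were less uniform in line 3. Of the 27, 19 kept at least 50% of the wild-type mean in both line 3 libraries, 9 were at or above the lowest wild-type library in both, and 2 were at 10% or less in both. Those 2 were MSN, at 0.635 and 0.746 CPM (log2 -5.11 against wild type, edgeR adjusted p = 1.3e-13), and POU4F2, at 0.201 and 0.213 CPM (adjusted p = 6.85e-08). TEAD2 was at 73.2 and 78.9 CPM in line 3, 0.14 log2 above wild type (adjusted p = 0.207), and the diverged libraries were below line 3 (log2 difference -6.49, SE 0.246). ST8SIA1 and BCHE went the opposite way in line 3, at 11.5 and 9.53 CPM and at 11.6 and 9.88 CPM, above every wild-type library (adjusted p = 4.25e-07 and 4.3e-05).

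The naming rule also picked the largest changes with line 3 within 0.25 log2 of wild type. Upward, these were the neuropeptide Y receptor NPY2R, the corepressor TLE2, the vesicle-binding protein SYTL4, the G protein regulator RGS11, the metalloprotease inhibitor TIMP3, the Rac activator DOCK5, the mannosidase MAN1A1 and LINGO2. NPY2R, a receptor of the peptide whose own gene rose, was at 0.417 to 0.722 CPM in wild type, 0.401 and 0.612 CPM in line 3, and 5.23, 8.51 and 10.3 CPM in line 1 light, line 2 heavy and line 2 light. TIMP3 was at 5.87 to 8.14 CPM in wild type, 7.46 and 5.99 CPM in line 3, and 33.2, 45.2 and 43.8 CPM in the diverged libraries. Downward, these were TEAD2, UGT8, PLAGL1, PPP1R9A, PRNP, the chromatin reader L3MBTL3, the integrin subunit ITGB5 and the filopodial motor MYO10. MYO10 was at 15.8 to 17.9 CPM in wild type, 15.5 and 16.6 CPM in line 3, and 0.339, 0.987 and 0.772 CPM in the diverged libraries. These 16 genes were picked for a large difference between the diverged libraries and line 3, so no test of it is given for them.

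Gene lists were described by the number of members called and by the median log2 fold change, to be read beside 24.7% higher, 23.5% lower and a median of -0.004 over all genes tested. Of the same 16347 genes, 641 passed higher and 580 lower in line 3 against wild type. Against line 3, 2579 were higher and 2321 lower in the diverged libraries, and the choice of libraries favours such differences. The lists were drawn up with earlier results of these data known, and no list was tested. Members in the same pathway are not independent.

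Among 22 tested transcription factors of the adrenergic state, 4 rose and 14 fell, with a median of -0.23. DACH1 fell from 14.2 to 1.74 CPM, LMO3 from 54.8 to 28.8 CPM, GATA3 from 426 to 283 CPM and HEY1 from 19.8 to 9.52 CPM. HAND2 fell from 763 to 654 CPM and was named after its value was seen. Line 3 had 2 of the 22 higher and 7 lower. Among 15 tested factors of the mesenchymal state, 5 rose and 7 fell, with a median of 0.13 that was -0.001 without line 2 heavy and -0.06 without line 1 light. TCF7L2, a Wnt-responsive factor, fell from 5.73 to between 1.35 and 1.58 CPM. TWIST1 fell from 334 to 217 CPM and ZEB2 from 65.8 to 42.2 CPM. Of 9 tested SOX factors, 3 rose and 5 fell: SOX4 fell from 601 to 247 CPM and SOX11 from 470 CPM to between 236 and 273 CPM.

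The identity of the cells was checked with marker lists. Of 12 adrenergic neuroblastoma markers, 11 were at 1 CPM or more on average in wild type and in the diverged libraries. The exception was TH, tyrosine hydroxylase, under 1 CPM in both. Of the 7 mesenchymal markers PRRX1 was at 0 in all 9 libraries, CD44 went from 0.471 to 2.81 CPM and VIM from 22 to 63.1 CPM. TWIST1 went from 334 to 217 CPM, SNAI2 from 3.86 to 1.93 CPM, RUNX1 from 0.401 to 0 CPM and FOSL1 from 0.271 to 0.181 CPM, and the summed level of the 7 was 346 to 379 CPM in wild type and 276 to 296 CPM in the diverged libraries. The Schwann cell markers SOX10 and CDH19, the fibroblast marker DCN and the epithelial markers KRT5 and ESRP1 were at 0 in all 9. The summed level of 6 Schwann or glial markers was 1.39 to 2.33 CPM in wild type and 3.19 to 4.17 CPM in the diverged libraries, most of the difference from S100B, and that of 6 epithelial markers 2.04 to 3.00 and 4.18 to 5.44 CPM, most of it from KRT19. Summed fibroblast and endothelial markers were 84.0 to 88.9 CPM in wild type and 60.1 to 63.1 CPM in the diverged libraries, nearly all from PDGFRB. Wider lists of the same classes were also counted. Of 8 tested Schwann and glial genes 5 rose and 2 fell (median 0.96), and their sum was 195 to 221 CPM in wild type and 438 to 490 CPM in the diverged libraries, most of it from L1CAM, which neurons express too. Of 8 fibroblast and endothelial genes 1 rose and 6 fell, 5 of them at least 2-fold (median -1.85), with PDGFRA and COL1A1 among the falls. Of 4 epithelial genes 3 rose and none fell (median 0.93). The part of these genes in the other results was not tested.

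Noradrenaline genes moved in opposite directions at different steps. Of 18 tested genes of catecholamine synthesis, transport and breakdown, 12 rose and 1 fell, with a median of 0.79, and in line 3 6 passed higher and 1 lower. GCH1, which makes the cofactor of tyrosine hydroxylase, was at 30.2 to 37.3 CPM in wild type and 191, 194 and 206 CPM in the diverged libraries. SLC6A2, the noradrenaline transporter, rose from 53 to 176 CPM and DRD2, a dopamine receptor, from 19.8 to 37.5 CPM. DBH, which converts dopamine to noradrenaline, was the member that fell, from 2251 to 975 CPM. MAOB, a monoamine oxidase, went from 2.69 CPM to 23.8 CPM in line 1 light and 44.1 and 45.7 CPM in line 2, and was named after its value was seen.

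Of 17 neuropeptide and granin genes, 10 rose and 4 fell, with a median of 0.30. Beside NPY, CHGB, a granin of dense-core vesicles, rose from 207 to 345 CPM. VIP, vasoactive intestinal peptide, fell from 10.4 CPM to 0.396 CPM in line 1 light and 1.44 and 1.12 CPM in line 2, and ADM, adrenomedullin, from 23.4 to 8.45 CPM. VIP was at 10.7 and 12.7 CPM in line 3, and the diverged libraries were below line 3 (log2 difference -3.57, SE 0.244). As VIP was picked for its change in the diverged libraries, no test of this difference is given.

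The synaptic release machinery was the list with the largest share of rises among those with at least 20 tested genes: 34 of 45 rose and 3 fell, with a median of 0.54. In line 3, 8 passed higher and 1 lower, with a median of 0.07. Against line 3, 26 of the 45 were higher in the diverged libraries and 4 lower, beside 2579 and 2321 of all 16347 genes. SNAP25, a SNARE of vesicle fusion, was at 150 to 162 CPM in wild type and 240, 245 and 232 CPM in line 1 light, line 2 heavy and line 2 light. The calcium sensor SYT7 rose from 27.3 to 62.1 CPM and RAB3B, a vesicle GTPase, from 5.07 to 15.8 CPM. SYT9, another synaptotagmin, had 8 counts in all wild-type libraries together and 73 to 144 counts in each diverged library.

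Channels and receptors for transmitters rose more often than they fell. Of 21 sodium and calcium channel genes, 12 rose and 2 fell, among them SCN3B from 40.8 to 76.4 CPM, SCN2A from 17.1 to 34.0 CPM, CACNA1B, the N-type channel, from 40.9 to 70.5 CPM, and CACNA1D, an L-type channel, from 2.06 to 6.97 CPM. Of the same 21 genes, 1 passed higher and 3 lower in line 3. Against line 3, 12 were higher in the diverged libraries and 0 lower, beside 2579 and 2321 of all 16347 genes. Of 48 potassium channel genes, 25 rose and 11 fell, with KCNMA1, the large-conductance calcium-activated channel, going from 21.6 to 62.6 CPM and KCNH6 from 4.72 to 21.1 CPM. Of 47 receptors for transmitters, 23 rose and 8 fell. CHRNA3, the ganglionic nicotinic receptor subunit, rose from 183 to 445 CPM, and P2RX5, an ATP-gated channel, from 0.993 to 8.23 CPM. GRM8, a metabotropic glutamate receptor, fell from 108 CPM to 5.57, 6.79 and 7.79 CPM, and the muscarinic receptor CHRM2 from 36.9 to 9.27 CPM.

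Growth factor receptors changed in both directions. Of 49 tested receptor tyrosine kinases and ligands, 22 rose and 18 fell, 12 and 10 of them at least 2-fold. EGFR, named after its value was seen, was at 4.60 to 5.48 CPM in wild type and at 124 CPM in line 1 light, 71.6 CPM in line 2 heavy and 66.0 CPM in line 2 light. PDGFRA, the alpha receptor of platelet-derived growth factor, fell from 90.4 CPM to 12.9, 16.1 and 12.1 CPM. GFRA3, the artemin co-receptor, rose from 31.7 to 92.7 CPM in the diverged libraries and was at 24.4 and 14.6 CPM in line 3. FGF14, an intracellular channel modulator of the FGF family, rose from 18.4 to 58.7 CPM. RET, the signalling receptor of the GDNF family, named after its value was seen, rose from 36.8 to 79.1 CPM.

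Of 28 genes of the neuronal cytoskeleton and intermediate filaments, 12 rose and 6 fell. GAP43, a growth-cone protein, rose from 63.9 CPM to 230 CPM in line 1 light, 251 CPM in line 2 heavy and 268 CPM in line 2 light. VIM, vimentin, rose, and NEFM, the medium neurofilament, fell from 228 CPM to between 116 and 128 CPM. Of 23 tested genes of cortical actin, 9 rose and 10 fell, with S100A6 rising from 21.2 to 61.4 CPM and the actin crosslinker FLNC falling from 9.46 to 1.72 CPM.

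**Figure D3:**
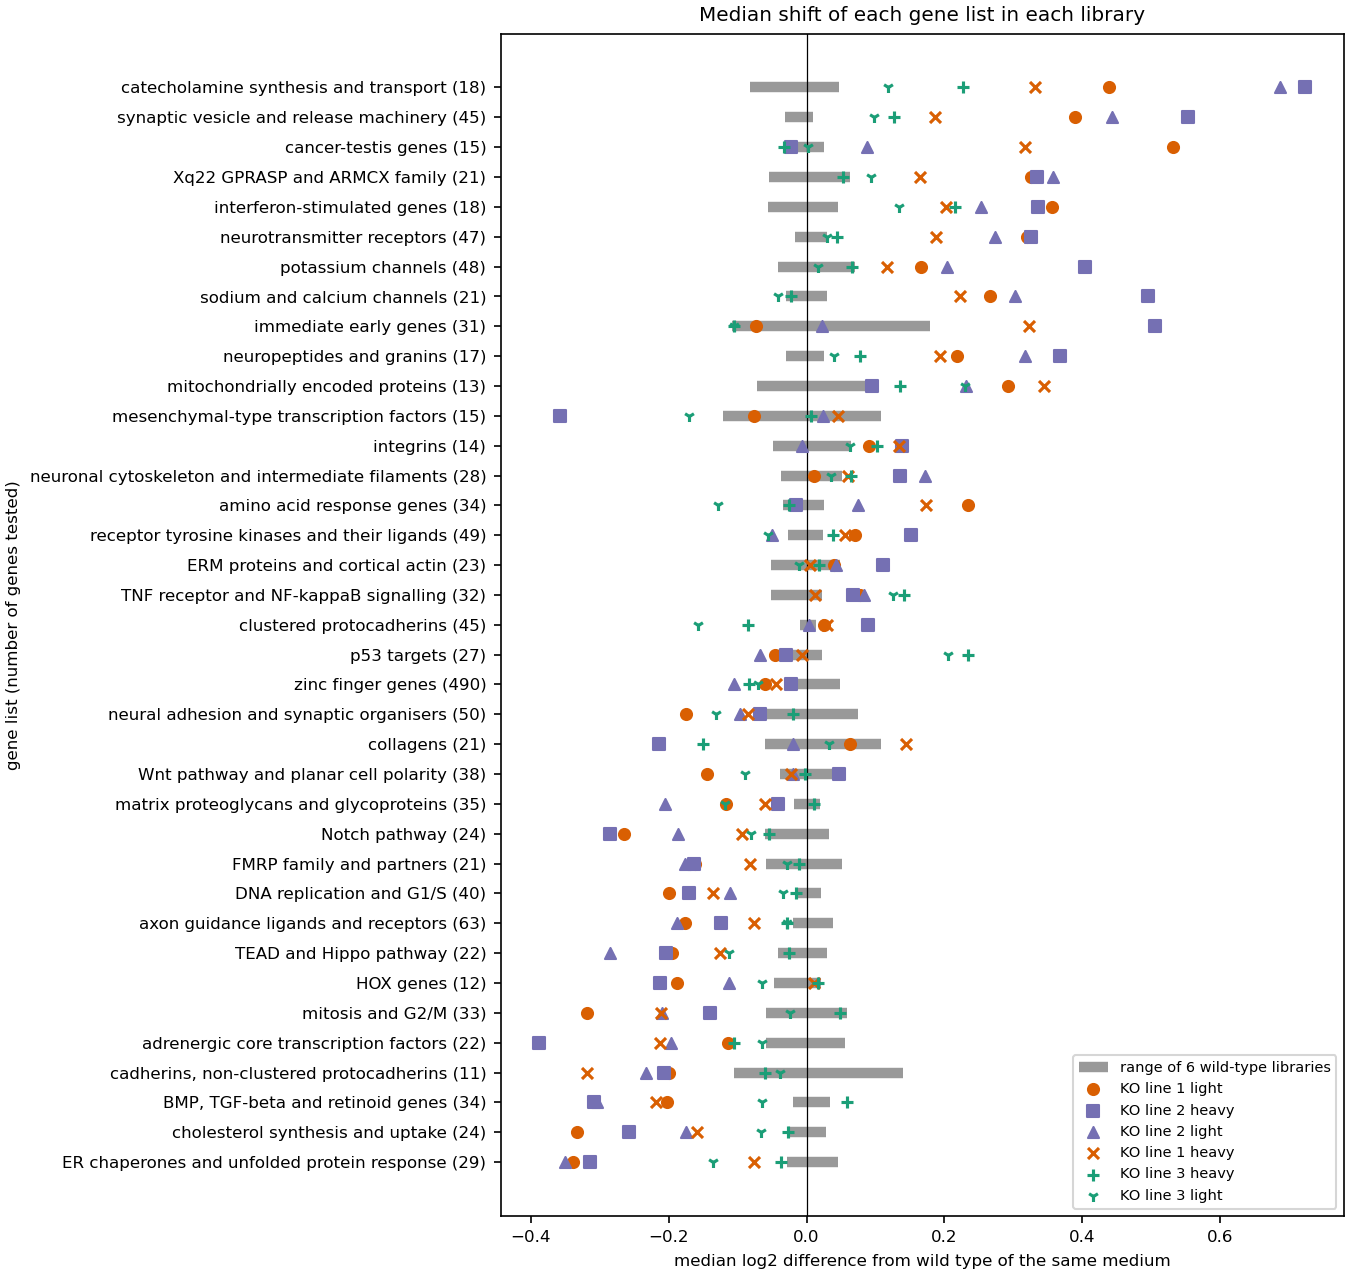
Median log2 difference from wild type of the same medium (x axis) for each gene list with at least 10 tested genes (y axis, number tested in parentheses), by library; grey bars span the 6 wild-type libraries. In the 3 diverged libraries, lists of catecholamine and synaptic release genes lie far right. Those of endoplasmic reticulum chaperones and cholesterol synthesis lie far left. Line 3 lies nearer to 0 in most lists, with p53 targets and TNF receptor and NF-kappaB genes among the exceptions.

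Among axon guidance, neural adhesion and matrix genes, falls outnumbered rises. Among axon guidance genes 31 of 63 fell and 19 rose, 21 and 5 of them at least 2-fold, with a median of -0.18. ROBO2, a Slit receptor, fell from 37.5 CPM to 6.42, 4.20 and 3.78 CPM in line 1 light, line 2 heavy and line 2 light, while line 3 was at 58.1 and 51.4 CPM, above wild type (edgeR adjusted p = 9.72e-05). The semaphorin receptor PLXNA4 fell from 120 to 33.7 CPM, the netrin receptor UNC5D from 16.0 to 3.70 CPM and NTNG1 from 6.50 to 2.02 CPM. Of 50 neural adhesion genes, 16 rose and 21 fell. L1CAM, an adhesion molecule of axons, rose from 196 to 426 CPM, while SLITRK6 fell from 87.2 to 14.1 CPM and FLRT3 from 16.8 to 2.51 CPM.

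Of 35 matrix glycoprotein genes, 10 rose and 17 fell, and of 21 collagen genes 7 rose and 8 fell. The basement membrane collagens COL4A1 and COL4A2, neighbours on chromosome 13, fell together, from 60.7 to 7.78 CPM and from 147 to 21.8 CPM. FN1, fibronectin, fell from 46.3 to 9.07 CPM, LAMA1, a laminin chain, from 30.1 to 9.28 CPM, and FBLN1 from 263 to 118 CPM. FBN1, fibrillin, rose from 14.9 to 50.8 CPM. Of 14 integrin genes, 5 rose and 4 fell, among them ITGA1, a collagen receptor subunit, from 26.7 to 80.8 CPM. Of 11 cadherins and non-clustered protocadherins, 2 rose and 6 fell, with PCDH1 and PCDH17 the members that rose. Of 45 clustered protocadherins, whose reads may be shared, 11 rose and 5 fell, or 35.6% called.

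In the BMP and Notch lists, falls outnumbered rises. Of 34 BMP, TGF-beta and retinoid genes, 7 rose and 20 fell, with a median of -0.25. BMP7, a secreted ligand, was at 56.7 to 67.7 CPM in wild type and 3.17, 2.90 and 2.16 CPM in the diverged libraries, and the homeobox factor MEIS1 went from 81.1 to 7.63 CPM. Its relative MEIS2 rose from 288 to 530 CPM, and BMPR1B, a BMP receptor, from 25.2 to 72.4 CPM. Of 24 Notch genes, 5 rose and 11 fell. NOTCH3 fell from 57.4 to 17.3 CPM, its ligand JAG1 from 7.02 to 2.52 CPM and the target HES1 from 3.82 to 0.992 CPM. DNER and DLK1, ligands outside the canonical families, rose from 1.14 to 19.8 CPM and from 329 to 1463 CPM on average, DLK1 being named after its value was seen.

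Of 22 TEAD and Hippo genes, 1 rose and 12 fell, with WWC2 and the atypical cadherin DCHS1 among the falls, and none of the 22 passed higher and 1 lower in line 3. Of 38 Wnt and planar polarity genes, 13 rose and 16 fell. The secreted antagonist DKK1 rose from 4.12 to 25.9 CPM, and RSPO4, which enhances Wnt signals, from 1.04 CPM to 23.7, 16.0 and 14.3 CPM. Both were also higher in line 3 than in wild type, at 8.19 and 7.03 CPM and at 5.22 and 4.85 CPM (edgeR adjusted p = 7.11e-05 and 1.12e-07).

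In 4 lists of general cell functions no member changed at least 2-fold. Of 29 endoplasmic reticulum chaperones and stress genes, 18 fell and 1 rose, with a median of -0.34. HSPA5, the main chaperone of that compartment, was at 603 to 690 CPM in wild type and 341, 360 and 316 CPM in the diverged libraries, and MANF fell from 93.3 to 49.0 CPM. Of 24 cholesterol genes, 14 fell and 2 rose, with INSIG1 going from 64.7 to 38.1 CPM. Of 40 genes of DNA replication and G1/S, 24 fell and none rose, and of 33 mitotic genes 19 fell and 1 rose. CDC20, an activator of the anaphase-promoting complex, fell from 101 to 62.1 CPM and the replication helicase subunit MCM7 from 914 to 722 CPM. In line 3, 2 replication genes and no mitotic gene passed.

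Of 27 p53 targets, 7 rose and 8 fell. In line 3, 9 passed higher and 1 lower, beside 641 and 580 of all 16347 genes. The medians were -0.03 in the diverged libraries and 0.21 in line 3. Against line 3, 15 of the 27 were lower in the diverged libraries and 2 higher, beside 2321 and 2579 of all 16347 genes. The choice of libraries favours such differences. PHLDA3, a p53-induced inhibitor of Akt, was at 10.5 to 12.5 CPM in wild type, 16.9 to 18.2 CPM in the diverged libraries and 21.2 and 21.4 CPM in line 3. Of 18 interferon-stimulated genes, 10 rose and 1 fell, among them OAS3, an antiviral enzyme, from 10.9 to 30.3 CPM, and line 3 was at 26.4 and 23.6 CPM. Of 13 mitochondrially encoded genes, 4 rose, or 30.8% called, MT-CYB from 6506 to 7623 CPM. In line 3, 6 of the 13 passed higher and 0 lower, with a median of 0.20 beside 0.21 in the diverged libraries. Of 490 zinc finger genes, 52 rose and 127 fell, or 36.5% called, and ZNF521 fell from 23.9 to 2.05 CPM. On the long arm of chromosome X, 14 of 21 GPRASP and ARMCX family genes rose and 2 fell, GPRASP1 going from 1.20 to 26.2 CPM and standing at 13.6 and 13.9 CPM in line 3.

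The comparison joins 2 lines, and how far they differ was tested directly, since the choice of libraries did not use that difference. Line 1 light was set against both libraries of line 2 in a fit with wild type, in which the lone line 1 library is assumed to vary like the others. Of 16347 genes, 257 (1.57%) passed, 95 higher and 162 lower in line 1, with 39 and 76 changed at least 2-fold. An unadjusted p under 0.05 was reached by 1504 genes. The count was 157 without line 2 heavy and 143 without line 2 light. In 150 of the 257, both lines lay outside the wild-type range on the same side, and in 35 they lay outside it on opposite sides. Over all 16347 genes these numbers were 6943 and 107. Of the 39 switched genes, 7 were among the 257.

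Genes lower in line 1 light than in line 2 included BASP1, CDCA7L, DPP10, ST6GAL1, NEXMIF and ADAMTS19. BASP1 (chromosome 5, 17065598 to 17276843), a growth-cone protein, was at 84.6 to 90.5 CPM in wild type, 57.4 and 61.7 CPM in line 2, and 1.33 CPM in line 1 light (log2 difference -5.48, SE 0.149, edgeR adjusted p = 4.13e-15). Line 1 heavy was at 43.0 CPM. DPP10, a potassium channel subunit, was at 7.67 to 10.3 CPM in wild type, 29.9 and 26.6 CPM in line 2 and 0.311 CPM in line 1 light, so that the lines lay on opposite sides of wild type (log2 difference -6.54, SE 0.284, adjusted p = 7.39e-12). ST6GAL1, a sialyltransferase, was at 11.6 to 13.4 CPM in wild type, 9.76 and 10.5 CPM in line 2 and 0.113 CPM in line 1 light. CDCA7L was at 38.1 and 38.5 CPM in line 2 and 0.99 CPM in line 1 light, against 85.9 to 97.6 CPM in wild type. ADAMTS19, off in both lines, had no count in line 1 light and 11 and 14 counts in line 2.

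Of the 95 genes higher in line 1 light than in line 2, the naming rule took GTSF1, ARHGAP36, ANXA5, PCDHB15, EPHB4 and MAGEC1. GTSF1, a germline gene of the piRNA pathway, was at 0.387 to 0.543 CPM in wild type, 0.226 and 0.656 CPM in line 2, and 32.5 CPM in line 1 light (log2 difference 6.11, SE 0.273, edgeR adjusted p = 1.01e-11), with line 1 heavy at 18.2 CPM. ARHGAP36 was at 90.5 CPM in line 1 light and 14.0 and 12.5 CPM in line 2, against 16.2 to 21.8 CPM in wild type. ANXA5, annexin A5, was at 73.5 to 81.5 CPM in wild type, 50 CPM in line 1 light and 8.09 and 7.91 CPM in line 2, and EPHB4, an ephrin receptor, at 42.5 to 48.4, 10.9, 1.97 and 2.16 CPM in the same order.

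**Figure D4:**
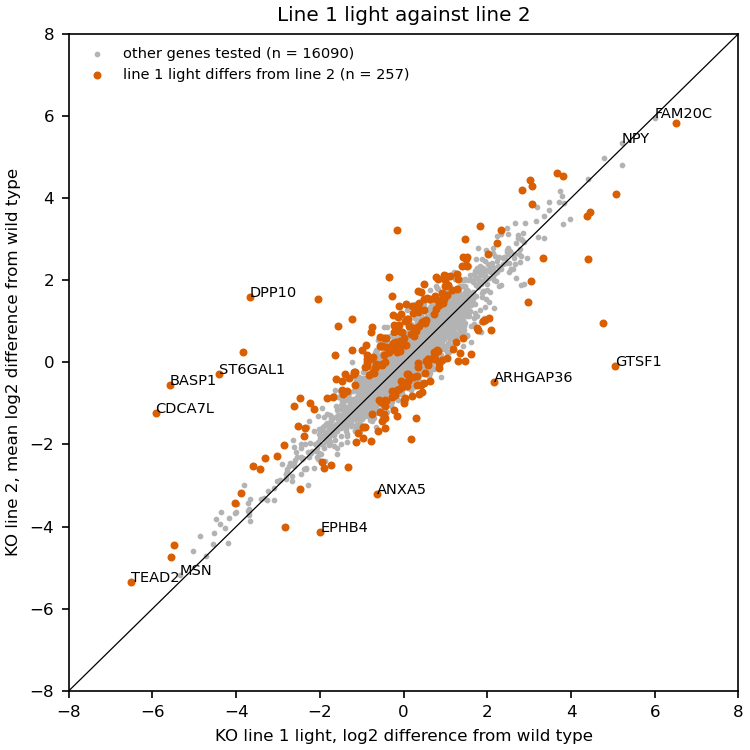
Log2 difference from wild type of the same medium, on CPM + 0.5, in knockout line 1 light (x axis) and as the mean of the 2 line 2 libraries (y axis) for 16347 genes; the line marks equal change, and orange points are the 257 genes that differed between line 1 light and line 2. Both axes use the same wild-type libraries, so points lie along the line in part for that reason; BASP1, DPP10 and GTSF1 lie far from it.

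Position on the genome was not used in the choice of libraries. The median log2 fold change of each autosome and of chromosome X lay within 0.053 of 0, the farthest being chromosome 18 at -0.053 over 225 genes. The 22 tested mitochondrial genes had a median of 0.224, and of 0.186 in line 3. In runs of 40 neighbouring tested genes, no run had all 3 diverged libraries beyond 0.2 on the same side. The lowest run, on chromosome 19 from LPAR2 to ZNF726, had a median of -0.33, with 23 of its 40 genes lower; its medians were -0.36 in line 1 light, -0.14 in line 2 heavy and -0.30 in line 2 light. The share of genes called lower ranged from 19.2% on chromosome 22 to 29.8% on chromosome 18, beside 23.5% over all genes.

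**Figure D5:**
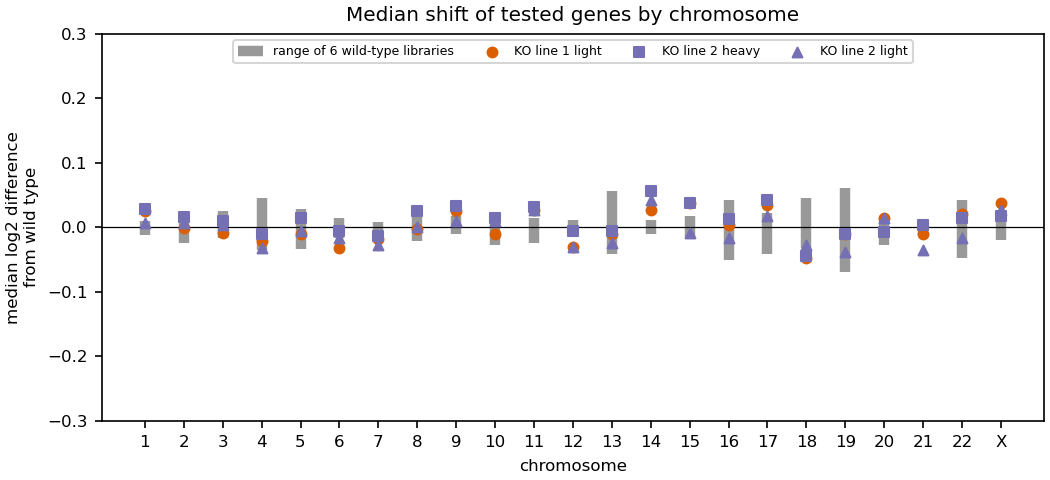
Median log2 difference from wild type of the same medium (y axis) of the tested genes of each chromosome (x axis) in line 1 light and in both libraries of line 2; grey bars span the 6 wild-type libraries. Every median lies close to 0, and many lie inside or next to the wild-type range.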

How the data were processed

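Per the labels' protocols, poly(A) RNA was taken up in stranded libraries. Per the submitters' processing notes, bcl2fastq 2.19.0, STAR 2.7.0f on GRCh38.p13, featureCounts of Subread 1.6.4 and DESeq2 1.22.1 in R 3.5.1 were used. Not given in the sources used here are the annotation release, the strand setting and the handling of multiply matching reads, so overlapping, antisense and near-identical genes are uncertain. The authors deposited raw counts per gene, and these were used as deposited; 27691 of 59087 features were at 0 in every library.

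Counts were tested with edgeR 4.0.16 in R 4.3.3 (limma 3.58.1, DESeq2 1.42.0 as alternatives), with TMM factors, filterByExpr, robust quasi-likelihood F tests, the medium as a covariate and Benjamini-Hochberg adjustment over all genes tested at 0.05. CPM used TMM-scaled totals; differences by library used log2(CPM + 0.5). Scripts were tested on simulated counts. The tests were run on 9 libraries for the diverged libraries against wild type and for line 1 light against line 2, on 8 for line 3, and on 11 for diverged against line 3. Line 1 heavy entered as values and as an alternative. Wild-type libraries are shared by all comparisons, so values are given side by side.

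The libraries, the 41 gene lists and the tests were chosen with earlier results of these data known. The rule for named genes took FMR1, FXR1 and FXR2; among symbols with a mean of at least 1 log2 CPM, the 14 largest rises and falls with the diverged libraries outside the wild-type range; the 8 largest per direction that passed in line 3 too, or that lay within 0.25 log2 of wild type there; the 6 largest per direction between line 1 light and line 2; and up to 4 members per list by smallest p. Other named genes, such as the remaining switched ones, were chosen after their values were seen. Positions are from GENCODE release 29 on GRCh38, and promoters from RefSeq on GRCh38.p14. Alternatives were RLE factors, DESeq2, limma-voom, 2 filters, libraries left out, line 1 heavy added, the replicate number as a block, all 12 libraries in 1 fit, no medium term, light medium alone, glmTreat and counts summed per line. Some members of the lists are not reported here by name.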

Additional observations from a re-analysis of the deposited data

Results flagged for a closer look

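The difference between the diverged libraries and line 3 passed 0.05 for 4970 of 16874 genes (edgeR), 2612 higher and 2358 lower in the diverged libraries, where the effect of being a knockout line was set against the same wild type. The largest differences included TEAD2, ST8SIA1 and BCHE. The choice of libraries favours such differences, and their cause was not tested.

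The difference between line 1 light and line 2 passed 0.05 for 257 of 16347 genes (edgeR), with BASP1, DPP10 and GTSF1 among the largest. For such genes the line 1 heavy library lay between line 1 light and wild type, as it did for genes shared by both lines.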

How the results depend on the processing

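The count of genes passing for the diverged libraries against wild type (7869) ranged from 5878 to 8067 when a library was left out. It was 7516 with DESeq2, 7874 with RLE factors and with limma-voom, 8350 without the filter, 7393 with at least 1 CPM in 2 libraries, 7234 with line 1 heavy added, 6240 in light medium alone and 7667 on counts summed per line. Against a 1.5-fold threshold (glmTreat) it was 1614, 1001 higher and 613 lower, since that test asks for larger changes. With the replicate number as a block it was 7131. Deviations from group means of wild-type and knockout libraries with the same number and medium correlated between -0.222 and -0.026. The knockout deviations carry the differences between lines, so these correlations cannot decide whether the numbers pair wild-type with knockout libraries. Line 3 against wild type gave 538 to 1548 calls with a library left out, against 1238. The diverged libraries against line 3 gave 3318 to 4911, against 4970. Line 1 light against line 2 gave 143 to 157, against 257, and 397 without the filter; the cause was not tested, though fewer libraries entered or more genes were tested. Of 1051 values of 56 named results under alternatives, 1046 kept direction and side, 5 (of FXR2 and ADAMTS19) no longer passed, and 0 reversed. The number of lists with a positive median was 19 to 22 with a library left out, against 21, and the largest chromosome median was 0.037 to 0.075, against 0.053. Low counts limit genes at 0 to 3 counts, whose ratios are not given.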
